A study of Mus musculus with 14 samples.

Results

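Brain astrocytes were the 1586 nuclei that the deposited annotation labels as astrocytes, of 31324 nuclei in the 2 brain libraries and 109000 nuclei in the whole series. The series is a mouse single nucleus RNAseq (snRNAseq) study of endothelial cells (ECs) that lack the TGF-beta receptor gene *Tgfbr1*, with retinal and brain libraries. One brain library came from *Cdh5CreER;Tgfbr1 CKO/-* mice (CKO) that were given 4HT from postnatal day 3 to day 5, and the other from mice that the labels call wild type (control). Both were made from vascular fragments enriched by density centrifugation, and more than 1 brain was pooled for each library. Whether the astrocytes were attached to vessels was not tested. *Cdh5CreER* is a tamoxifen-inducible Cre that is active in ECs, so the induced deletion is not directed at astrocytes. The notation *CKO/-* gives 1 null allele that astrocytes of the CKO mice carry as well. The labels do not state the alleles of the control mice or whether these mice received 4HT. The labels call the mice young adults, whereas the methods of the study give an early postnatal age. With 1 library per genotype, a difference compares these 2 libraries and has no replicate check.

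Astrocytes take up glutamate and potassium released by neurons, supply them with lipids and metabolites, and are coupled to each other through gap junctions. Their endfeet cover brain vessels, where the water channel AQP4 is anchored next to the basement membrane, and they exchange signals with ECs. After injury or inflammation they become reactive, a state known for higher GFAP.

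The control library held 942 astrocytes among 16649 nuclei, 5.66% (exact binomial 95% interval 5.31 to 6.02), and the CKO library 644 among 14675, 4.39% (4.06 to 4.73). These intervals, and those below, cover counting error only. The authors' processing removed background RNA, so a count of 0 in the deposited files need not be 0 in the reads. The astrocytes differed in depth. Control astrocytes had a median of 1150.5 UMIs (unique molecular identifiers, each standing for 1 captured RNA molecule) and 495 genes, and CKO astrocytes 578.5 UMIs and 289 genes. Their sums were 1362484 and 505508 UMIs. The gap was not limited to astrocytes, since 19 of 21 cell types had the lower median in the CKO library, among them oligodendrocytes (2328 against 954.5 UMIs) and OPCs (986 against 616.5). ECs had 1347 and 1491. Among nuclei with at least 1000 UMIs, the astrocyte share was 5.30% in control and 1.22% in CKO, and the difference in share was larger there than over all nuclei. The libraries shared 2 cell barcodes among all nuclei, and none among astrocytes.

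Sex-linked genes differed as well. *Xist*, expressed from the inactive X chromosome, had 6105 UMIs in control astrocytes and 0 in CKO astrocytes, at least 755-fold lower against a floor of 3 counts in the library. Y-linked *Uty* had 136 and 71 UMIs, and Y-linked *Eif2s3y* 132 and 50. Control astrocytes thus held *Xist* and Y-linked RNA, and CKO astrocytes Y-linked RNA without *Xist*. Genotype and the sex of the pooled brains cannot be told apart.

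The label was compared with 4 marker genes. The glutamate transporter gene *Slc1a2* was at 10827 CPM (UMIs per 1000000 UMIs of the summed nuclei) in control and 10631 CPM in CKO astrocytes, which was 44.7 and 50.7 times its level in all other brain nuclei. *Aldh1l1*, a folate enzyme used to mark astrocytes, was at 278 and 237 CPM, 21.9 and 21.2 times the other nuclei. The gap junction gene *Gja1* was at 465 and 501 CPM, but this gene is not restricted to astrocytes here, since the nuclei labeled glia had 822 and 1138 CPM. Those nuclei had *Slc1a2* at only 181 and 156 CPM, so their label does not stand for nuclei like astrocytes in this marker. *Aqp4* was at 366 CPM in control and 704 CPM in CKO astrocytes, and the cluster labeled CP_6 had 419 and 391 CPM. At least 1 UMI of these 4 markers was found in 98.6% of control and 98.0% of CKO astrocytes, against 31.9% and 30.3% of all other nuclei. *Slc1a2* alone had a UMI in 97.6% and 96.4% of astrocytes, in 2.82% and 3.91% of oligodendrocytes, and in 13.8% and 21.2% of OPCs. After each nucleus was thinned to 500 UMIs, these shares were 92.8% and 93.4% of astrocytes and 1.69% and 1.68% of oligodendrocytes, with 5.37% and 15.1% of OPCs. Thinning left out 50 control and 206 CKO astrocytes with fewer UMIs.

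**Figure D1:**
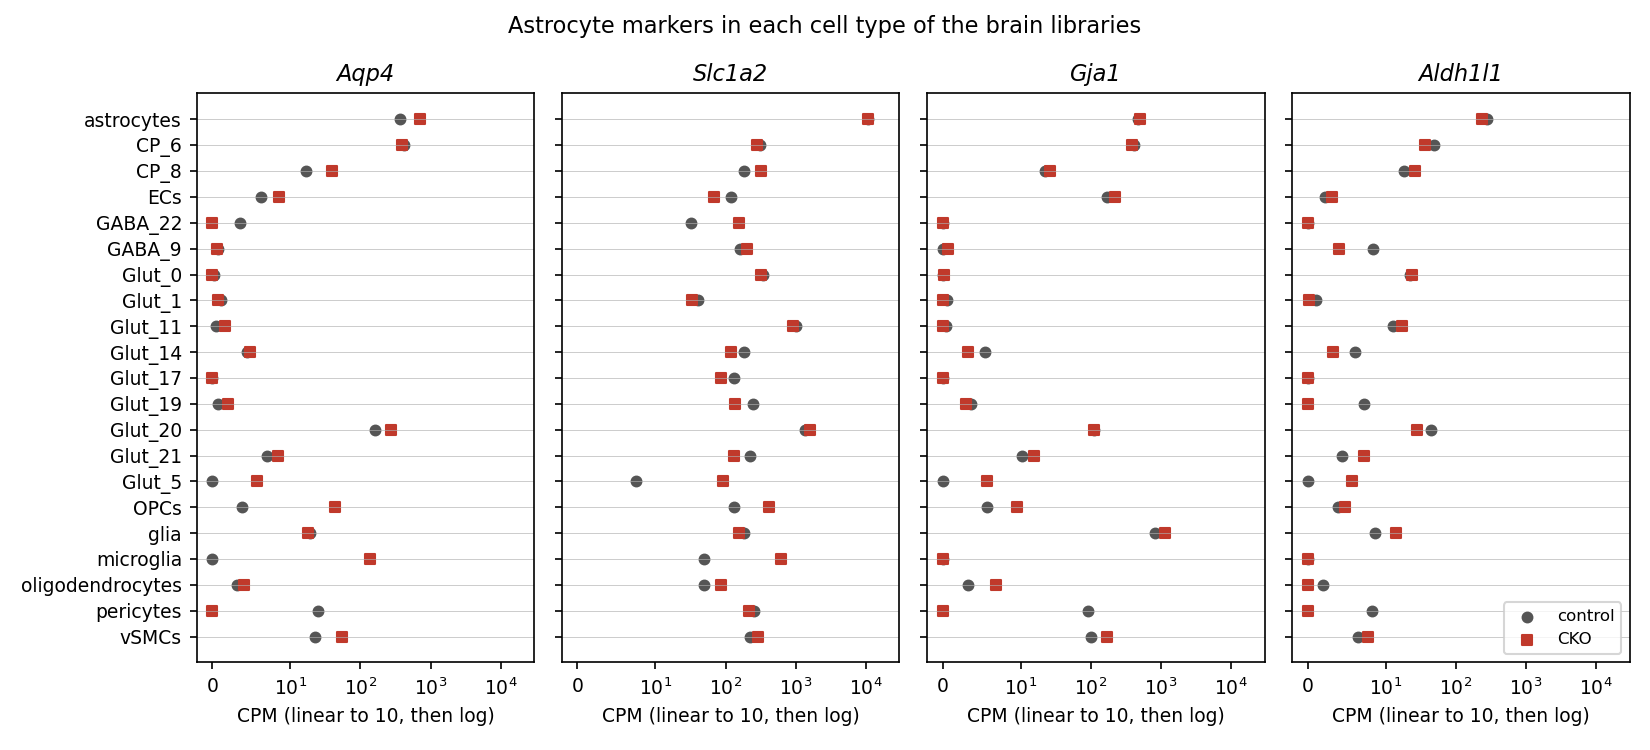
CPM of the 4 astrocyte markers in each deposited cell type, with control as circles and CKO as squares (axis linear to 10, then logarithmic). *Slc1a2* and *Aldh1l1* stood highest in astrocytes in both libraries, whereas *Gja1* stood higher in the nuclei labeled glia, at 822 and 1138 CPM.

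By the ratio of astrocytes to other nuclei, the most specific gene was *Ntsr2*, a neurotensin receptor, at 450 CPM in control and 281 CPM in CKO astrocytes. Next to it stood *Acsbg1*, an acyl-CoA synthetase, at 596 and 659 CPM, and *Dio2*, which activates thyroid hormone, at 193 and 253 CPM. The FGF receptor gene *Fgfr3* (432 and 360 CPM), the FGF-responsive factor *Etv4* (153 and 194 CPM) and the tight junction gene *Cldn10* (118 and 79.1 CPM) were also among the 15 most specific. The noncoding nuclear RNA *Malat1* took the most UMIs, at 108583 and 107656 CPM. The adhesion gene *Lsamp* followed at 28616 CPM in control and 19020 CPM in CKO astrocytes, a CKO over control ratio of 0.665 (exact conditional binomial 95% interval 0.650 to 0.680). None of the 15 genes with the most UMIs was past 2-fold. The lowest ratio among them was that of *Mdga2*, at 6391 and 3786 CPM (ratio 0.592), and the highest that of the transcription factor *Npas3*, at 7723 and 11252 CPM (ratio 1.46).

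Astrocytes with at least 500 UMIs, 892 control and 438 CKO nuclei, fell into 7 subclusters, described by their leading genes. Their numbers of nuclei per library are a description, since genes that define them also differ between the libraries. Subcluster 1 was the largest, with 291 control and 115 CKO nuclei, and was led by genes including *Emx2*, *Nr2e1* and *Chrdl1*. Markers of telencephalic astrocytes summed to 333 CPM in it and 162 CPM over the other subclusters, of which subcluster 7 had 514 CPM. Subcluster 4 (93 and 37 nuclei) was led by genes including *Slco4a1* and *Spock3*, and among its 10 leading genes were *Gdf10*, *Gria1* and *Gria4*, which are known from Bergmann glia of the cerebellum. Subcluster 6 (98 and 22 nuclei) was led by genes including *Myoc* and *Gfap*, with *Gfap* at 1854 CPM against 181 CPM elsewhere. Subcluster 2 was made up of 247 control and 10 CKO nuclei, and subcluster 5 of 10 control and 112 CKO nuclei. Each held mostly 1 library and may be that library and not a type of astrocyte. *Hr* and *Slc24a4* were among the leading genes of subcluster 2, and *B230323A14Rik* and *Grm5* among those of subcluster 5, and all 4 also differed over 2-fold between the libraries.

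Subclusters 3 and 7 carried genes of other cell types. Subcluster 3 (115 control and 120 CKO nuclei) was led by neuronal genes such as *Camk4* and *Cntnap2*. *Camk4* had 249 UMIs in it and 0 in the other subclusters, and *Cntnap2* 784 and 3. All 10 neuronal markers were detected there, summing to 2283 CPM against 42.0 CPM elsewhere. OPC markers summed to 1115 CPM against 209 CPM, ependymal and choroid plexus markers to 491 CPM against 227 CPM, fibroblast markers to 372 CPM against 123 CPM, and microglial markers to 177 CPM against 26.6 CPM, while the 12 astrocyte markers summed to 13821 CPM against 26096 CPM. Its nuclei were the deepest, with medians of 2553 UMIs in control and 1166.5 in CKO. Subcluster 7 (38 and 22 nuclei) was led by genes such as *Fli1* and *Slco1a4*, and endothelial markers summed to 1019 CPM against 72.5 CPM elsewhere. Fibroblast markers, all 7 of them detected, summed to 925 CPM against 144 CPM, and mural cell markers to 685 CPM against 102 CPM. Doublets had been removed before deposit, and whether these nuclei are remaining mixtures was not tested.

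Of 3482 genes with at least 50 UMIs, 404 (11.6%) were over 2-fold lower and 130 (3.73%) over 2-fold higher in CKO astrocytes. Over 4-fold, the counts were 100 lower and 4 higher, and over 10-fold 29 lower and 0 higher. The minimum was set on UMIs of both libraries together. A gene high in control passed it at a lower CPM than a gene high in CKO, because the control sum was larger. The median log2 ratio was −0.01. The split depended on the setting. With TMM scaling, which moves every log2 ratio by −0.24, it was 591 lower and 63 higher. With nuclei thinned to 500 UMIs it was 153 lower and 78 higher of 1561 genes. In nuclei with at least 1000 UMIs it turned, with 251 lower and 480 higher of 3184 genes. That setting kept 563 control and 109 CKO astrocytes, and 71 of those 109 belonged to subcluster 3, as did 102 of the 563. Without subcluster 3, a setting chosen after seeing the data, 526 genes were lower and 100 higher of 2388, and without nuclei of fewer than 500 UMIs as well, 427 and 89 of 2323.

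**Figure D2:**
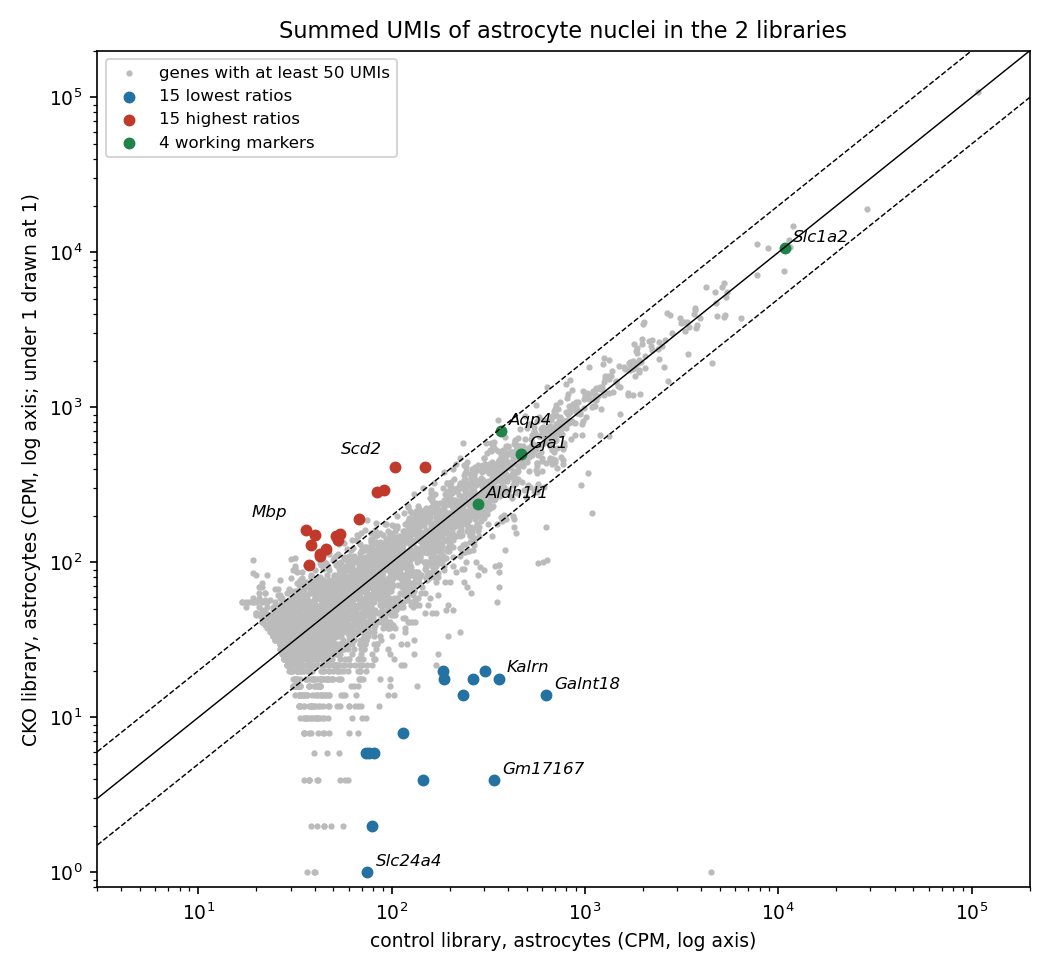
CPM of each gene with at least 50 UMIs in control (horizontal) and CKO astrocytes (vertical), both on log axes, with the line of equality and dashed lines at 2-fold. The 15 lowest ratios among genes with at least 100 UMIs (blue) lie far below the 2-fold line, down to *Slc24a4* at 0 UMIs in CKO, and the 15 highest (red) reach 4.51 for *Mbp* and 3.97 for *Scd2*.

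Genes with at least 100 UMIs were ranked by their ratio, sex-linked genes apart. The 15 lowest had a UMI in 7.75% (*Etnppl*) to 45.3% (*Galnt18*) of control astrocytes and had at most 10 UMIs in CKO astrocytes. This follows in part from the ranking and from the minimum, which was set on UMIs of both libraries, most of them from control. *Galnt18*, a glycosyltransferase gene, had 854 UMIs in control and 7 in CKO astrocytes, or 627 and 13.9 CPM, a level 45.3-fold lower (21.9 to 113). It was detected in 45.3% of control and 0.621% of CKO astrocytes, and in 0.995% of control and 0 of 640 CKO oligodendrocytes. After thinning, 26.8% of control and 0.457% of CKO astrocytes had it. The predicted gene *Gm17167* had 463 and 2 UMIs (ratio 0.0116, 0.00141 to 0.0423). *Slc24a4*, a sodium, calcium and potassium exchanger gene, had 102 and 0 UMIs, at least 12.6-fold lower. *Kalrn*, a guanine nucleotide exchange factor gene, was at 357 and 17.8 CPM, 20.1-fold lower (10.5 to 44.2). *Nell2*, a secreted ligand gene, was at 264 and 17.8 CPM, 14.8-fold lower (7.73 to 32.7), and *Wdr17* at 235 and 13.9 CPM, 17.0-fold lower (8.14 to 42.5). The cyclin gene *Ccnd3* had 156 and 4 UMIs, the sodium-activated potassium channel gene *Kcnt1* 254 and 9, and the protease gene *Adamts20* 252 and 10. *Mfge8*, which bridges phagocytes to dying cells, had 104 and 3 UMIs (ratio 0.0778, 0.0158 to 0.234). *Lrrc8c*, which encodes a volume-regulated anion channel subunit, had 111 and 3 (ratio 0.0729, 0.0148 to 0.219). *Etnppl*, a phospholipid enzyme gene, had 101 and 3 (ratio 0.0801, 0.0162 to 0.241). The RIKEN genes *3110039M20Rik* (108 and 1 UMIs), *5031439G07Rik* (199 and 2) and *4930578G10Rik* (414 and 10) complete the 15. The ratios of all 15 were at most 0.243 in each of the 9 other settings run for named genes, which changed the scaling, the weighting, the depth or the nuclei kept. These settings reuse the UMIs on which the genes were ranked, so they are no separate check.

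Summed over all other nuclei of the same libraries, 13 of these 15 genes were within 2-fold. *Galnt18* was at 268 CPM in control and 328 CPM in CKO over all nuclei other than astrocytes. *Kalrn* was at 1129 and 1165 CPM there, and *Nell2* at 377 and 377 CPM. In the neuron cluster Glut_0, *Galnt18* was at 410 and 471 CPM, but in CP_6 it was over 2-fold lower, at 188 and 90.0 CPM. In OPCs, *Galnt18* had 22 UMIs in control and 12 in CKO (42.2 and 57.5 CPM), and *Kalrn* 27 and 15 (51.9 and 71.8 CPM). Past 2-fold in this sum were *Gm17167*, at 136 and 30.9 CPM, and *Etnppl*, at 1.34 and 0.360 CPM. The sum does not hold for each cell type. Among cell types other than astrocytes with at least 50 UMIs of the gene, 28 of 149 values were over 2-fold lower in CKO and 2 higher, with 13 of the 28 for *Gm17167*. Without that gene it was 15 of 135. Over all genes with at least 50 UMIs in these cell types, 6.58% of values were lower and 3.09% higher. In all, 10 of the 15 genes were over 2-fold lower in at least 1 other cell type. In the nuclei labeled glia, *Kcnt1* had 162 UMIs in control and 5 in CKO (93.5 and 10.0 CPM). There *4930578G10Rik* had 212 and 8 UMIs (122 and 16.0 CPM). In oligodendrocytes, *Lrrc8c* had 115 and 7 UMIs (74.1 and 9.61 CPM), and in vascular smooth muscle cells *Wdr17* had 73 and 1. For these genes, low values were found in another cell type as well. *Kalrn* was over 2-fold lower in none of the 14 other cell types with enough UMIs, and *Nell2* in none of 16. These values share the same libraries, and the difference between cell types was not tested.

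With at most 10 CKO UMIs for each of these genes, the subclusters show mainly where the control UMIs lay. In subcluster 1, *Galnt18* had 225 UMIs in control and 0 in CKO, *Kalrn* 229 and 0, and *Wdr17* 156 and 2. In subcluster 4, *Nell2* had 124 and 0 UMIs. In subcluster 3, which carried neuronal genes, *Galnt18* had 109 and 4 UMIs, *Kalrn* 99 and 9, and *Nell2* 113 and 9, so all 9 CKO astrocyte UMIs of *Kalrn* and of *Nell2* came from that subcluster.

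**Figure D3:**
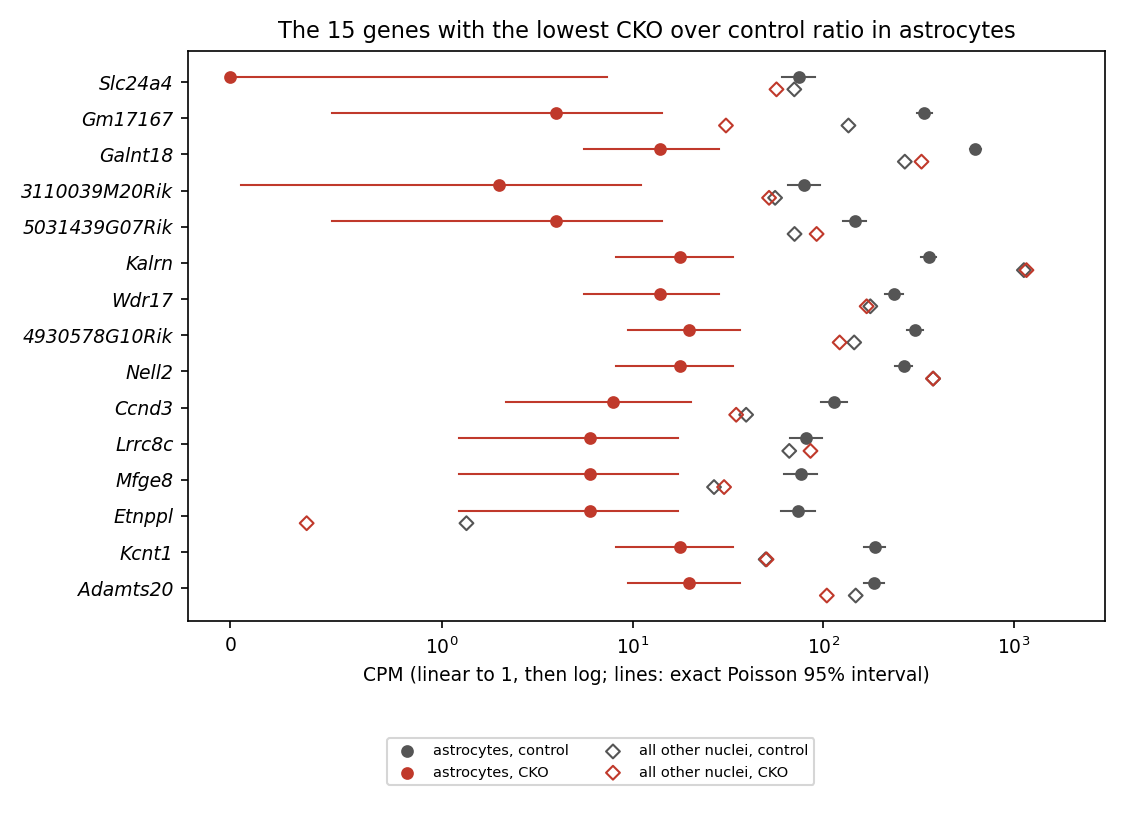
CPM of the 15 genes with the lowest ratio, in astrocytes (filled circles, with exact Poisson 95% intervals) and in all other nuclei (open diamonds), control in gray and CKO in red, on an axis that is linear to 1 and then logarithmic. In astrocytes the CKO values lie well to the left of the control values. The sums over other nuclei, such as *Kalrn* at 1129 and 1165 CPM, hold cell types with lower values as well. An example is *Kcnt1* in the nuclei labeled glia, at 93.5 and 10.0 CPM.

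The highest ratios were smaller. *Mbp*, a myelin gene of oligodendrocytes, was at 36.0 CPM in control and 162 CPM in CKO astrocytes, 4.51-fold higher (3.13 to 6.56). Of its 82 CKO UMIs, 57 lay in subcluster 3. Of its 49 control UMIs, 33 lay in subcluster 6, where oligodendrocyte markers summed to 859 CPM against 118 CPM elsewhere. Without subcluster 3 its ratio was 1.99, and 1.09 when nuclei with fewer than 500 UMIs were left out as well. *Scd2*, a fatty acid desaturase gene, was at 104 and 413 CPM, 3.97-fold higher (3.19 to 4.94), and 4.19-fold higher without subcluster 3. The ratio of *Scd2* was 2.52 in the mean over subclusters 1 and 3, and 1.79 on 50 UMIs in subcluster 1 alone. Of its 209 CKO UMIs, 49 lay in the 22 nuclei of subcluster 6. *Scd2* had a UMI in 8.81% of control and 14.6% of CKO astrocytes, in 27.2% and 12.2% of oligodendrocytes, and in 0.50% and 1.44% of OPCs. After thinning these shares were 3.14% and 10.3% of astrocytes, 6.10% and 4.55% of oligodendrocytes, and 0 of 354 and 0.719% of OPCs. In all other nuclei *Scd2* was at 86.5 and 72.8 CPM, but in the nuclei labeled glia it was higher in CKO, at 62.3 and 150 CPM. *Psap*, a lysosomal lipid carrier gene, was at 40.4 and 150 CPM, 3.72-fold higher (2.60 to 5.37), and had a ratio of 3.69 without subcluster 3. In subcluster 3 it was at 67.3 and 214 CPM, but in subcluster 1 it had 10 and 0 UMIs. The mean over subclusters 1 and 3 gave a ratio of 0.831, which rests on those 10 UMIs and on the 0.5 UMIs added to each sum. *Nsmf* (38.2 and 129 CPM), *B230323A14Rik* (84.4 and 283 CPM) and *Slc22a23* (91.7 and 295 CPM) were over 3-fold higher. The ratio of *B230323A14Rik* was 1.75 in nuclei with at least 1000 UMIs. *Rgcc*, a cell cycle regulator gene, was at 67.5 and 190 CPM, with a ratio of 1.19 in nuclei with at least 1000 UMIs. *Usp24*, a deubiquitinase gene, was at 149 and 411 CPM, 2.76-fold higher (2.27 to 3.37). *Tmem108*, *Bmp6*, *Stat3*, *Nhsl2*, *Ldlrad3*, *Brd8* and *Cdyl* complete the 15, with ratios from 2.59 to 2.89. The ratio of *Tmem108* was 1.70 with equal weight for each nucleus, and 11.8 on 23 UMIs without subcluster 3 and nuclei with fewer than 500 UMIs. That of *Cdyl* was 1.92 in the mean over subclusters 1 and 3. That of *Nhsl2* was 15.3 on 33 UMIs without nuclei holding 2 or more markers of 1 other cell type. Most UMIs of *Nhsl2* lay in subcluster 3, 63 of 72 in control and 58 of 71 in CKO, as did most of *Tmem108*, 62 of 70 and 57 of 75. Of the 15, 14 had a ratio above 1 in every setting with a ratio for the gene. They were chosen for high ratios in the same UMIs, so this is no separate check.

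Genes for uptake, ion balance and junctions were within 2-fold over all labeled astrocytes. Lists of genes by function were summarized over members with at least 20 UMIs, after 0.5 UMIs was added to each sum. Over all 5769 such genes, 9.08% were over 2-fold higher and 14.0% over 2-fold lower in CKO. None of 12 genes for glutamate and GABA uptake was past 2-fold, and they summed to 18850 CPM in control and 19731 CPM in CKO. The second glutamate transporter gene *Slc1a3* was at 3668 and 3984 CPM, glutamine synthetase *Glul* at 852 and 799 CPM, and the GABA transporter gene *Slc6a11* at 734 and 813 CPM. None of 12 genes for ion and water balance was past 2-fold. Among them were the potassium channel gene *Kcnj10* (263 and 281 CPM) and the bicarbonate transporter gene *Slc4a4* (5124 and 5968 CPM). *Aqp4* came nearest, with a ratio of 1.92 (1.67 to 2.21) that was 1.39 after thinning and 2.02 in the mean over subclusters 1 and 3. Of 3 junction genes, none was past 2-fold, with *Gjb6* at 278 and 200 CPM. The 13 genes of mature astrocytes summed to 27664 and 29972 CPM, with none past 2-fold. In nuclei with at least 1000 UMIs, of which most in CKO belonged to subcluster 3, these lists were lower in CKO. There the log2 median was −0.51 for glutamate and GABA uptake, against 0.13 over all astrocytes. It was −0.42 for ion and water balance, against 0.09, and −0.66 for genes of mature astrocytes, against 0.09. *Slc1a2* had a ratio of 0.593 in these nuclei, against 0.982 over all astrocytes.

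Of 10 endfoot and basement membrane genes, *Dag1* was over 2-fold higher (21 and 23 UMIs) and *Col4a1* lower (36 and 2 UMIs). The dystrophin gene *Dmd* was at 1132 and 1023 CPM and its partner *Dtna* at 3927 and 3761 CPM. Of 14 genes for contacts with synapses and phagocytosis, none was past 2-fold. The phagocytic receptor gene *Mertk* was at 1717 and 1737 CPM, and *Megf10* at 370 and 378 CPM. The log2 median of this list was 0.08, and −0.54 in nuclei with at least 1000 UMIs.

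Lipid genes had the highest median of the metabolic lists, 0.46 on the log2 scale over 18 genes. *Scd1*, *Scd2* and *Dbi* were over 2-fold higher and none was lower. *Dbi*, an acyl-CoA binding protein gene, was at 31.6 and 107 CPM, a ratio of 3.38 (2.23 to 5.18) that was 1.46 after thinning. *Apoe*, the main lipid carrier gene of astrocytes, was at 327 and 522 CPM, and *Fabp7*, a fatty acid binding protein gene, at 122 and 229 CPM. Cholesterol synthesis genes summed to 835 and 908 CPM, with a median log2 ratio of 0.18 over 14 genes. Of 11 genes of glycogen and glycolysis, *Pygm*, *Gbe1* and *Pfkm* were over 2-fold lower. The phosphofructokinase gene *Pfkm* was at 130 and 25.7 CPM, 5.05-fold lower (2.88 to 9.68), and the glycogen phosphorylase gene *Pygm* at 75.6 and 35.6 CPM, 2.12-fold lower (1.28 to 3.72). The ratio of *Pygm* was 0.635 with equal weight for each nucleus and 0.127 in nuclei with at least 1000 UMIs. That of *Gbe1*, the glycogen branching enzyme gene, was 0.445, but 0.748 in nuclei with at least 1000 UMIs and 0.611 after thinning.

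Of 19 transcription factor genes of astrocytes, 1 was past 2-fold. That gene was *Lhx2*, at 41.1 and 15.8 CPM (ratio 0.385, 0.158 to 0.812), with a ratio of 0.536 after thinning and 0.555 in the mean over subclusters 1 and 3. *Sox9*, which specifies the glial lineage, was at 132 and 196 CPM, *Nfia* at 3238 and 3561 CPM and *Zbtb20* at 4762 and 4746 CPM. *Lhx2* and *Mfge8* were also the members over 2-fold lower among 5 measured markers of telencephalic astrocytes, which summed to 236 and 107 CPM over the whole list. The log2 median of these 5 was −0.77, and −0.05 in nuclei with at least 1000 UMIs. *Emx2*, another of them, was at 36.0 and 35.6 CPM. The 7 measured markers of astrocytes outside the telencephalon summed over the whole list to 1425 and 1436 CPM, with none past 2-fold.

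Of 12 Notch pathway genes, 4 were over 2-fold lower and none higher. Among all genes with at least 20 UMIs, 14.0% were lower and 9.08% higher. The log2 median of the 12 was −0.07, and the whole list of 19 summed to 3259.5 CPM in control and 3499.5 CPM in CKO. The receptor gene *Notch1* was at 214 and 87.0 CPM, 2.46-fold lower (1.79 to 3.46), and *Dner*, a noncanonical ligand gene, at 242 and 101 CPM, 2.40-fold lower (1.78 to 3.29). The target genes *Hey2* (56 and 7 UMIs) and *Nrarp* (82 and 12 UMIs) were lower too, while *Hes5*, another target, was at 52.8 and 61.3 CPM and *Notch2* at 222 and 313 CPM. In nuclei with at least 1000 UMIs the ratio of *Notch1* was 0.633, that of *Dner* 0.623 and that of *Hey2* 0.569. None of 13 genes of FGF and MAPK signaling and none of 7 Hedgehog genes was past 2-fold, with *Gli3* at 918 and 1076 CPM. In nuclei with at least 1000 UMIs the log2 median was −0.45 for the FGF and MAPK genes, against 0.25 over all astrocytes, and −0.67 for the Hedgehog genes, against −0.01. Of 13 Wnt genes, *Fzd3* was over 2-fold higher (1.32 in the mean over subclusters 1 and 3), and *Apcdd1* and *Fzd1* lower.

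TGF-beta signaling is the pathway of the deleted gene. *Tgfbr1* had 75 UMIs in control and 32 in CKO astrocytes, 55.0 and 63.3 CPM, a ratio of 1.15 (0.735 to 1.76). The ratio was 1.59 with equal weight for each nucleus, and 2.74 on 36 UMIs without nuclei holding 2 or more markers of 1 other cell type. Where these UMIs lie in the transcript is not known from the counts. *Tgfbr2* had 19 and 5 UMIs, and the coreceptor gene *Tgfbr3* was at 38.2 and 81.1 CPM, 2.13-fold higher (1.38 to 3.26), with a ratio of 1.80 under TMM scaling. The ligand gene *Tgfb2* was at 52.8 and 19.8 CPM, 2.67-fold lower (1.37 to 5.81), with a ratio of 0.683 in nuclei with at least 1000 UMIs. *Itgb8* and *Itgav*, whose integrin activates latent TGF-beta, were at 240 and 237 CPM and at 259 and 249 CPM. Of 12 measured components, 2 were over 2-fold higher and 2 lower, *Ltbp3* (14 and 11 UMIs) and *Nrros* (41 and 6 UMIs) being the others. Of 10 targets of TGF-beta, *Pmepa1* was over 2-fold higher (20 and 27 UMIs) and none lower. The log2 median of the targets was −0.23, and 0.37 in nuclei with at least 1000 UMIs. Of 13 BMP genes, *Bmp6* (54.3 and 152 CPM) and *Smad1* (30 and 23 UMIs) were over 2-fold higher, the latter not under TMM scaling (ratio 1.75). Of the 74 control UMIs of *Bmp6*, 36 lay in subcluster 3 and 30 in subcluster 7. Its ratio was 1.97 without subcluster 3 and nuclei with fewer than 500 UMIs, and 41.1 on 48 UMIs without nuclei holding markers of other cell types. The target genes *Id3* and *Id4* were at 42.6 and 37.6 CPM and at 206 and 241 CPM.

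Few genes of reactive astrocytes were measured, and most of these were higher in the CKO library. Of 16 genes known from all reactive astrocytes, 5 had at least 20 UMIs, and 4 of these were over 2-fold higher and none lower. Of all genes with that minimum, 9.08% were over 2-fold higher and 14.0% lower. *Gfap* was at 235 CPM in control and 588 CPM in CKO astrocytes, 2.50-fold higher (2.13 to 2.94). It had a UMI in 13.9% of control and 19.7% of CKO astrocytes, against 0.663% and 0.156% of oligodendrocytes. After thinning it had a UMI in 7.74% and 14.8% of astrocytes, and in 0 of 590 and 0.168% of oligodendrocytes. Its ratio was 1.36 after thinning to 500 UMIs and 1.67 with equal weight for each nucleus, against 4.27 in nuclei with at least 1000 UMIs, so the size of the difference depended on which nuclei were counted and how. *Stat3* was at 45.5 and 123 CPM, 2.70-fold higher (1.86 to 3.90) and 4.41-fold higher after thinning, and the ceruloplasmin gene *Cp* at 22.8 and 83.1 CPM, 3.65-fold higher (2.24 to 6.01). The ratio of *Cp* ranged up to 20.1 over the settings, on 25 UMIs without nuclei holding markers of other cell types, and was 15.3 on 17 UMIs after thinning. *Aspg* had 5 and 16 UMIs. *Lcn2*, *Timp1* and *Hspb1*, which reactive astrocytes are known to induce, had no UMI in the astrocytes of either library. None of 12 genes ascribed to the A2 state had 20 UMIs, and of 13 ascribed to the A1 state only *Fkbp5* did, which is also a glucocorticoid target. It was at 207 and 49.5 CPM, 4.19-fold lower (2.78 to 6.58).

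Most inflammatory genes had fewer than 20 UMIs. Of 29 interferon and antigen presentation genes in the table, 2 had at least 20 UMIs, of which *Stat2* was over 2-fold higher (16 and 12 UMIs). A further 10 had no UMI, *Isg15*, *Irf7* and *Psmb8* among them. The list summed to 66.1 and 91.0 CPM. Of 24 genes of NF-κB signaling, chemokines and adhesion, 10 were measured and *Il1r1* was over 2-fold higher (15 and 12 UMIs), while *Ccl2*, *Il6* and *Icam1* had no UMI. The adhesion gene *Vcam1* was at 124 and 131 CPM. Of 3 measured complement genes, *C4b* was over 2-fold higher and *Cd46* lower (25 and 2 UMIs). *C4b* was at 36.0 and 96.9 CPM, 2.70-fold higher (1.78 to 4.09), with a ratio of 1.23 in nuclei with at least 1000 UMIs. None of 17 immediate early genes had 20 UMIs.

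Of 11 measured genes that act on vessels, *Igfbp2* was over 2-fold higher (26 and 30 UMIs), and *Ednra* and *Ptgs1* were lower. Over all genes with at least 20 UMIs, 9.08% were over 2-fold higher and 14.0% lower. The growth factor gene *Vegfa* was at 399 and 358 CPM and *Angpt1* at 236 and 364 CPM. Among hypoxia genes, *Pdk1* was over 2-fold higher (23 and 28 UMIs) of 4 measured. Among 14 measured matrix genes, the proteoglycan gene *Ncan* was at 226 and 475 CPM, 2.10-fold higher (1.77 to 2.49) and 1.78 in ratio under TMM scaling, and the protease gene *Mmp14* had 67 and 9 UMIs, 2.76-fold lower (1.37 to 6.30). Of 7 measured genes of immature astrocytes, *Igfbp2* and *Nnat* were over 2-fold higher, *Nnat* with 41 and 53 UMIs, and *Tnc* was at 545 and 702 CPM.

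Of 22 measured receptor genes, *Grm5*, *Lpar1* and *Adora2b* were over 2-fold higher and *Adora1* lower. The metabotropic glutamate receptor gene *Grm5* was at 355 and 833 CPM, 2.34-fold higher (2.05 to 2.68) but 1.64 in ratio in nuclei with at least 1000 UMIs, and *Grm3* at 1999 and 3464 CPM. The adenosine receptor gene *Adora1* had 65 and 9 UMIs, 2.68-fold lower (1.33 to 6.12), with a ratio of 0.708 in nuclei with at least 1000 UMIs. Of 13 circadian genes, the clock activator gene *Arntl* was over 2-fold lower, at 238 and 117 CPM (ratio 0.491, 0.365 to 0.649), with a ratio of 0.621 after thinning, and *Per2* was at 93.9 and 96.9 CPM. The thyroid hormone target *Hr* was at 99.1 and 39.6 CPM, 2.50-fold lower (1.56 to 4.23), but 1.04 in ratio in the mean over subclusters 1 and 3. Of 10 glucocorticoid genes, *Fkbp5* and *Sult1a1* (23 and 0 UMIs) were over 2-fold lower. Of 4 metallothionein and stress genes, *Mt3* (66.1 and 150 CPM) and *Nfe2l2* (13 and 12 UMIs) were over 2-fold higher, *Mt3* with a ratio of 1.93 under TMM scaling. With TMM scaling, the log2 medians of lists lay 0.24 lower, so that those between 0 and 0.24, among them glutamate uptake, ion balance and transcription factors, turned below 0. Of all 343 measured list members, 33 were over 2-fold higher and 30 lower, and 22 and 40 with TMM scaling.

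**Figure D4:**
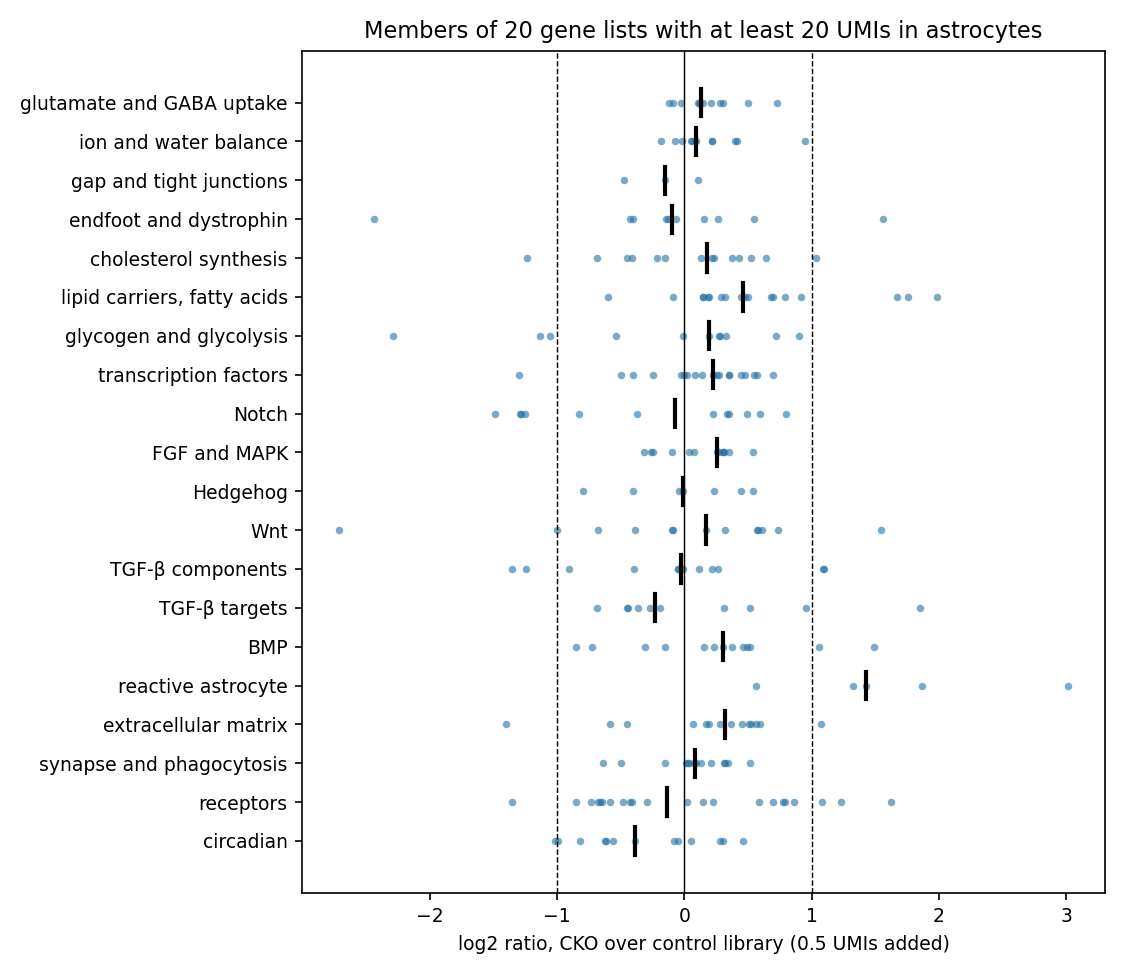
Log2 ratio of CKO over control astrocytes for each member with at least 20 UMIs (points) of 20 gene lists, with the median of each list as a black bar and dashed lines at 2-fold. Members of the glutamate uptake and ion balance lists lie inside the 2-fold lines, and 4 of 5 reactive astrocyte genes lie to the right of them. Of all genes with at least 20 UMIs, 9.08% were over 2-fold higher.

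Markers of other cell types were present at low levels and differed between the libraries. The 8 oligodendrocyte markers summed to 123 CPM in control and 317 CPM in CKO astrocytes, with *Mbp* the most abundant, *Opalin* at 0, and 2 of 3 measured over 2-fold higher. The 7 OPC markers summed to 407 and 647 CPM, with *Lhfpl3* the most abundant, *C1ql1* at 0, and none of 4 measured past 2-fold. The 10 neuronal markers summed to 639 and 748 CPM, with *Meg3* the most abundant, and of 6 measured, *Snhg11* was higher, and *Syt1* and *Gad1* were lower. The ratio of *Syt1*, 0.478, was 0.935 in nuclei with at least 1000 UMIs and 0.176 in the mean over subclusters 1 and 3. It was 0.685 on 15 UMIs without nuclei holding 2 or more markers of 1 other cell type. The 8 ependymal and choroid plexus markers summed to 227 and 520 CPM, with *Ttr* the most abundant and both measured genes higher. The ratio of *Ttr*, 2.06, was 1.75 under TMM scaling and 1.80 in nuclei with at least 1000 UMIs. It was 8.1 in the mean over subclusters 1 and 3. The 8 endothelial markers summed to 141 and 98.9 CPM, with *Flt1* the most abundant, and the 8 mural cell markers to 159 and 63.3 CPM, with *Pdgfrb* (112 and 12 UMIs) the most abundant. The 6 microglial markers summed to 52.8 and 107 CPM, and the 7 fibroblast markers to 184 and 239 CPM, with *Col1a2* the most abundant. Of 10 markers of other immune cells, 6 were at 0. In nuclei with at least 1000 UMIs the log2 median was 0.90 for neuronal markers, against 0.25 over all astrocytes, and 0.60 for endothelial markers, against −0.42. The part of such RNA in the ratios of astrocyte genes was not tested. Without nuclei holding 2 or more markers of 1 other cell type, 408 genes were over 2-fold lower and 107 higher of 2194.

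Few retinal astrocytes were available for comparison. The whole series held 232, and the batch with the retinal control had 12 nuclei in the control and 47, 12 and 6 in its 3 CKO libraries. *Slc1a2* had 5 UMIs in the retinal control and 41 over the CKO libraries (160 and 207 CPM), against 10827 and 10631 CPM in the brain. *Gja1* had 1 and 20 UMIs there, *Aqp4* 0 and 6, and *Aldh1l1* 0 and 1. The retinal nuclei thus differed from brain astrocytes in the markers used for the label, which limits the comparison. *Gfap* had 3 and 308 UMIs (95.9 and 1552 CPM). *Kalrn* had 39 and 47 UMIs (1247 and 237 CPM), lower in the CKO libraries as in the brain. Some others among the 15 lowest in the brain had at most 1 UMI in the retinal control and higher values in the CKO libraries. *Wdr17* had 1 and 31 UMIs (32.0 and 156 CPM), and with 0 UMIs in the retinal control, *4930578G10Rik* and *Lrrc8c* had 18 each and *Ccnd3* 14 in the CKO libraries. *Galnt18*, with 7 and 26 UMIs (224 and 131 CPM), was lower as in the brain. *Nell2* had 1 and 2 UMIs (32.0 and 10.1 CPM), too few to give a direction. *5031439G07Rik* was at 64.0 and 60.5 CPM. *Scd2* had 5 and 52 UMIs (160 and 262 CPM). With 12 control nuclei and 31274 control UMIs these values have wide counting error. A control value of 0 or 1 UMI sets no direction.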

How the data were processed

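UMI counts per gene and nucleus, whole numbers without normalization, were deposited by the authors with cell type labels. The authors had enriched vascular fragments, prepared PIPseq libraries, counted UMIs with PIPseeker, removed background RNA with CellBender and doublets with SOLO, and curated clusters by hand. The submitters' processing notes name Seurat and mm10, while the methods name GRCm39. Members and gene lists were chosen with earlier results of these data known.

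Counts of astrocyte nuclei were summed per library and divided by their total (CPM). Ratios of CKO over control carry exact conditional binomial 95% intervals, sums exact Poisson and shares exact binomial intervals. Genes with at least 50 UMIs were counted past 2-fold, and list members with at least 20 UMIs after 0.5 was added. With 1 library per genotype no test was made. Named genes were the 4 working markers, the TGF-beta receptors and sex-linked genes, the 15 largest and 15 smallest ratios among genes with at least 100 UMIs, sex-linked genes apart, of each of 48 lists the 4 members with most UMIs and those past 2-fold with at least 50, and the 15 genes with most UMIs and the 15 with the largest ratio to other nuclei among genes with at least 200. Other genes named were chosen after their values were seen. The label was checked against its markers.

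Subclusters were made from nuclei with at least 500 UMIs with scanpy 1.11.5 (2000 variable genes without sex-linked genes, 20 components, 15 neighbors, Leiden resolution 0.5). TMM factors came from edgeR 4.0.16 in R 4.3.3, and other values from Python 3.11.15 with numpy 2.4.6, scipy 1.17.1 and pandas 2.3.3. The ratio code was tested on simulated data. Alternatives were other minimums, folds and scaling, depth limits, thinning, equal weights, marker-based labels and subclusters. The mean over subclusters 1 and 3 was taken on the log scale after 0.5 UMIs was added to each sum.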

Additional observations from a re-analysis of the deposited data

Results flagged for a closer look

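*Nhsl2* and *Cdyl* were higher in CKO than in control astrocytes of the brain, with ratios of 2.66 and 2.59, and lower in each of the 3 retinal CKO libraries than in the retinal control of the same batch. In the brain, 63 of 72 control and 58 of 71 CKO UMIs of *Nhsl2* lay in subcluster 3, which carried neuronal genes. *Nhsl2* was at 128 CPM in the retinal control and at 73.2, 67.3 and 29.9 CPM in the CKO libraries, from 4, 11, 1 and 1 UMIs. *Cdyl* was at 192 CPM and at 66.6, 0 and 89.8 CPM, from 6, 10, 0 and 3 UMIs. The 3 retinal comparisons share 1 control library of 12 nuclei, so their common direction is not 3 separate observations. Counting error is wide at these UMI numbers. The difference between the tissues was not tested.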

How the results depend on the processing

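No paired analysis was possible because each genotype had 1 brain library and no test was made. Beside 404 genes over 2-fold lower and 130 higher in CKO astrocytes, the counts were 884 and 508 with at least 20 UMIs per gene, 84 and 12 with at least 200, 774 and 465 past 1.5-fold, 105 and 19 with the interval wholly past 2-fold, 638 and 230 with equal weight per nucleus, 153 and 78 after thinning, 251 and 480 in nuclei with at least 1000 UMIs, and 189 and 198 in nuclei of any label with 3 of the 4 working markers. TMM scaling gave 63 higher. Of the settings chosen after seeing the data, leaving out nuclei with fewer than 500 UMIs gave 318 lower and 183 higher. Among the nuclei left, which are the base for comparison, leaving out subclusters 2 and 5 gave 231 lower, and subcluster 1 alone 245 lower and 42 higher. The 189 and 198 were counted among 10315 genes and the 884 and 508 among 5769, against 3482 for the 404 and 130. Fewer genes were measured in several of the other settings, and the cause of the other differences was not tested.

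The astrocyte share was 5.30% in control and 1.22% in CKO with at least 1000 UMIs, and 6.65% and 5.49% without ECs in the denominator. Nuclei of any label with 3 of 4 markers made up 3.52% and 1.57%, of which 302 and 114 nuclei were not labeled astrocytes. Of list members, 33 were over 2-fold higher and 30 lower, 20 and 18 with at least 50 UMIs, and 53 higher in nuclei with at least 1000 UMIs. Resolutions of 0.25 and 1 gave 5 and 10 subclusters in place of 7.

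Of 64 named genes past 2-fold, 58 remained so with TMM scaling, 47 with at least 1000 UMIs, 59 with equal weights and 58 after thinning. In subcluster 1 alone 45 remained so. With at least 1000 UMIs, 34 of 70 ratios lay outside their interval over all astrocytes. Most of the 64 were named for such ratios in the same UMIs, so these counts are no separate check. The mean over subclusters 1 and 3, which alone had 50 nuclei in each library, turned *Psap* (0.831), *Slco1a4* (1.64) and *Hr* (1.04). For a gene with few UMIs in a subcluster, the 0.5 UMIs added to each sum set much of this mean. *Psap* had 10 and 0 UMIs in subcluster 1, and *Slco1a4* had no ratio in subcluster 1 alone, so no conclusion is drawn from these turns. Subcluster 1 alone, with 10 UMIs or fewer for each, turned *Psap* (0), *Dbi* (0.766), *Fzd3* (0) and *Smad1* (0). Their causes were not tested.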
